A study of Mus musculus with 21 samples.

Results

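Bone marrow eosinophils were compared with granulocyte-macrophage progenitors (GMPs), the marrow cells from which neutrophils, monocytes and, in mice, eosinophils are made. The comparison holds 3 eosinophil and 3 GMP RNA-seq libraries, 6 of the 21 samples in the series, and 12214 of the 15945 genes in the table passed a filter on low counts and were tested. Both groups came from wild-type, untreated mice. The mice's age, the way either population was isolated and whether the replicates came from separate animals are not given, so p-values may measure technical spread alone. The study set GMPs beside eosinophils to look for transcription programs behind a growing iron pool in eosinophils, and most genes described here are not iron genes. Levels in resting eosinophils (wild-type, untreated, 3 libraries) and in control bone marrow-derived eosinophils (BMDEs, wild-type, untreated, 2 libraries, grown from marrow in SCF and FLT3L, then IL-5) are set beside the results. Those libraries were scaled in tables of their own, so they are shown without a test.

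Eosinophils arise under GATA1 and C/EBP factors, and pack their granules with major basic protein, eosinophil peroxidase and RNases while they still divide. They carry the IL-5 receptor and the eotaxin receptor CCR3, and they make lipid mediators through lipoxygenases. Neutrophils pass through the same progenitor and fill primary, then secondary, then tertiary granules in that order. Marrow also holds iron-recycling macrophages around which red cells ripen, B cells at all stages, and a few basophils.

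Of the 12214 genes tested, 2413 were called at an adjusted p under 0.05 (19.8%). They comprised 1585 higher (13%) and 828 lower (6.78%) in eosinophils. Of the 41 gene lists described, those with the highest medians held eosinophil granule, neutrophil secondary and tertiary granule, B cell, macrophage and erythroid genes. The lists with the lowest medians were monocyte genes, ribosome biogenesis genes and one-carbon enzymes. Without eosinophil library 3, 12648 genes were tested and 4623 called (36.6%), of which 2545 were higher (20.1%) and 2078 lower (16.4%). All 2413 calls of the 6-library comparison were also made without that library, none with the opposite sign. Of all tested genes, 48.3% had levels that did not overlap between the groups.

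Promoter sequences of 5 genes are shown because members of their groups moved together: Ear2 and Epx of the eosinophil granule, Ltf and Ngp of the neutrophil secondary granule, and the alpha-globin gene Hba-a1. They are the 200 bases before the gene start, read 5′ to 3′ on the gene's strand, from RefSeq on GRCm38.p6. Capitals mark matches on either strand to GATAA (the core of GATA sites), TTGCNNAA (a C/EBP-type site) and GAGGAA (the core of PU.1 sites). No matches overlapped in these windows.
Ear2 (chr14:44102454-44102653, plus strand): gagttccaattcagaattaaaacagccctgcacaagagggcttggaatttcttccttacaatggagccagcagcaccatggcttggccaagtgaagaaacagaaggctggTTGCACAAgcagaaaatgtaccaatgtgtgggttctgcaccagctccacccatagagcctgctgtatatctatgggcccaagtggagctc
Epx (chr11:87875537-87875736, minus strand): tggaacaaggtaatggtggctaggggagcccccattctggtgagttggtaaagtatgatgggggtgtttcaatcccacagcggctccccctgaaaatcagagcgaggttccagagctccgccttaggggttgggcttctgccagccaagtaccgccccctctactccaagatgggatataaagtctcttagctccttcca
Ltf (chr9:111019092-111019291, plus strand): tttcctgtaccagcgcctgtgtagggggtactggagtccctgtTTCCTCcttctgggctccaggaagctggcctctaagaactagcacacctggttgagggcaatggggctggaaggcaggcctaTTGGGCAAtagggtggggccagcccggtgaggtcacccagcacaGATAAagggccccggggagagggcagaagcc
Ngp (chr9:110419608-110419807, plus strand): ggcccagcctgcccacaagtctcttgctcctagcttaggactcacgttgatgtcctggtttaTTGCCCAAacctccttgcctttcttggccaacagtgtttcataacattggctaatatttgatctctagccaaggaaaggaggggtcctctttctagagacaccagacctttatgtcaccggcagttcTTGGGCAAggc
Hba-a1 (chr11:32283472-32283671, plus strand): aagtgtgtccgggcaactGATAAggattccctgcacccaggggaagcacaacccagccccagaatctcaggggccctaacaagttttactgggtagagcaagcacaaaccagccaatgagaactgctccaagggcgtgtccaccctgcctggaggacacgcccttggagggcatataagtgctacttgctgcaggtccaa

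The Ear2 window held 1 TTGCNNAA match, whose first letter lay 90 bases before the start, and the Epx window held none of the 3 motifs. In the Ltf window the match to GATAA lay at 31 bases, that to TTGCNNAA at 75 and that to GAGGAA at 157. Ngp had 2 TTGCNNAA matches, at 11 and 138 bases, and Hba-a1 had GATAA at 182 bases. Among all 27025 genes with a promoter entry, 20.58% held GATAA, 8.548% TTGCNNAA and 21.33% GAGGAA. Over genes with an entry in the eosinophil granule (7), secondary granule (13), tertiary granule and mature neutrophil (16), macrophage (15) and late erythroid (14) lists in that order, GATAA was held by 2, 2, 4, 2 and 7. For TTGCNNAA the numbers were 3, 4, 1, 1 and 1. For GAGGAA they were 0, 7, 10, 7 and 4. A match is a description of letters in this window and not a binding site.

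Eosinophil library 3 stood apart from the other libraries. Total counts were similar (25857382 to 28992668 per library), but on the first principal component, which carried 68.2% of the variance, eosinophil libraries 1 to 3 sat at -34.0, -43.3 and -182.1 and the GMP libraries between 76.7 and 94.3. The median SD of log2 CPM over genes was 0.53 in eosinophils, 0.24 without library 3 and 0.20 in GMPs. Relative to the mean of the other 2 eosinophil libraries, library 3 had a median log2 difference of 0.38 in the lowest of 4 equal bins of GC content and -0.39 in the highest, and 0.10 in the shortest of 4 bins of transcript length and -0.29 in the longest. Library 3 had no read for 107 of 9213 genes that reached 5 CPM in both other eosinophil libraries, while library 1 lacked 2 of 8667 and library 2 none of 8621. What set library 3 apart was not tested, and the counts of each list below are given with and without it. With an offset for length and GC, 1285 genes were higher and 1118 lower, so the share of calls that were higher moved from 65.7% to 53.5%. Without library 3 the same offset gave 1996 higher and 3239 lower (38.1% higher), with the median of all genes moved to -0.23 on the log2 scale.

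**Figure D1:**
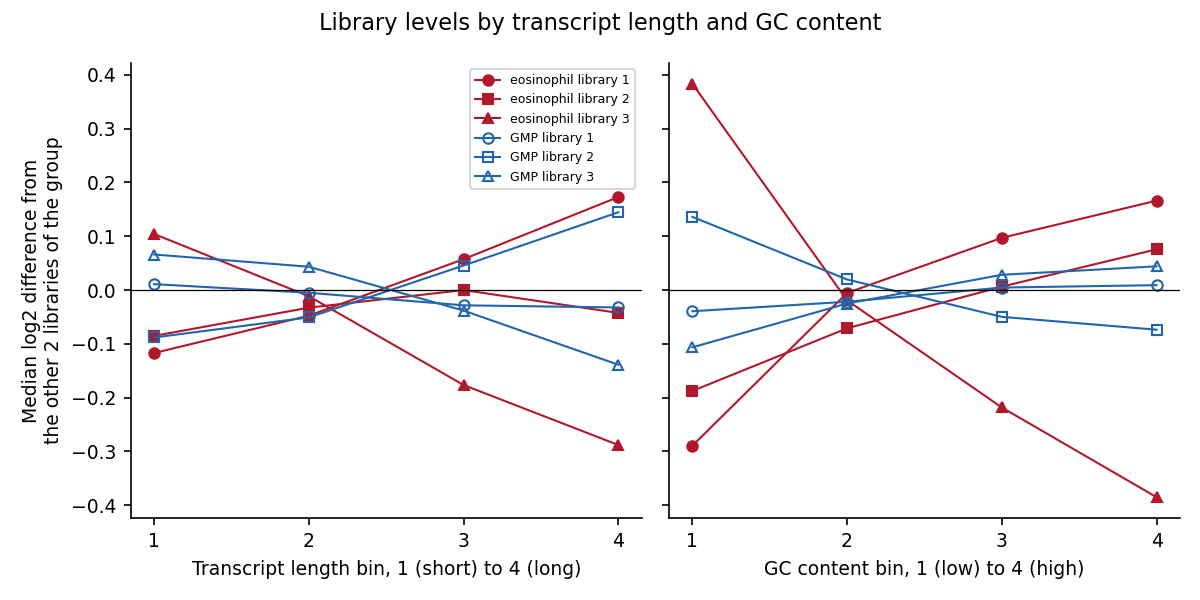
Median log2 difference of each library from the mean of the other 2 libraries of its group (y axis), by 4 equal bins of transcript length (left) and of GC content (right), for genes expressed in the comparison. Filled red points are eosinophil libraries and open blue points GMP libraries. Eosinophil library 3 falls from 0.38 to -0.39 with rising GC and from 0.10 to -0.29 with rising length.

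Values are given as CPM (each count scaled to the library total, with TMM factors) for libraries 1, 2 and 3 of a group in that order. Fold changes are log2, eosinophils minus GMPs, ± SE, and p-values are Benjamini-Hochberg adjusted values of edgeR's quasi-likelihood test. List counts cover members that passed the low-count filter. They are to be read beside the shares of all tested genes: 13% higher and 6.78% lower, or 20.1% and 16.4% without library 3. A gene near 0 in GMPs passes it only when it is high in eosinophils, so counts and medians over a list describe it and support nothing. In bulk RNA, fewer cells of a type and less RNA per cell cannot be told apart. Single libraries weighed on the calls: 747, 880 and 974 genes were called without GMP libraries 1, 2 and 3, 1452 without eosinophil library 2 and 4623 without eosinophil library 3. Of the 191 genes named here and called, 130 were called without each library in turn. The other 61 are listed in each paragraph with the libraries whose removal ended the call. Fewer libraries leave the test fewer residual degrees of freedom, so a lost call does not show that a gene rested on that library.

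All 7 eosinophil granule genes in the table rose, with and without library 3, against 13% of all genes (20.1% without library 3). Prg2, which encodes major basic protein, was at 11860, 11808 and 24474 CPM in eosinophils and 76.9, 36.0 and 141 CPM in GMPs. Its rise was 7.56 ± 0.70 (adjusted p = 0.00100), or 7.12 without library 3, and every eosinophil library was far above every GMP library. Epx, the eosinophil peroxidase, read 5057, 3050 and 2329 CPM against 44.9, 20.8 and 63.0 CPM (6.34 ± 0.57, adjusted p = 0.000871), highest in library 1 and lowest in library 3. Prg3, a paralog of major basic protein, rose by 6.98 ± 0.54 (adjusted p = 0.000476). The eosinophil-associated RNases Ear1, Ear2 and Ear6 rose by 9.44 ± 1.07, 9.18 ± 0.91 and 8.46 ± 0.94, each highest in library 3. These RNases are near-identical copies that share reads, so their separate values are uncertain. Ear10 had 2 counts in all over the GMP libraries and read 2.36, 6.11 and 12.6 CPM in eosinophils. The list median was 8.13 (7.40 without library 3), beside 0.01 over all genes. The rises of Ear1, Ear2 and Ear6 without library 3 were 8.69, 8.47 and 7.86.

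The reference libraries differed widely for these genes. Prg2 averaged 652 CPM in resting eosinophils and 22261 CPM in control BMDEs, and Epx 138 and 13979 CPM. Summed over the list, marrow eosinophils held 19015, 18419 and 34114 CPM, control BMDEs 43345 and 42487 CPM and resting eosinophils 1902, 1901 and 1992 CPM. The marrow eosinophils thus lay between resting eosinophils and BMDEs in the summed list.

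**Figure D2:**
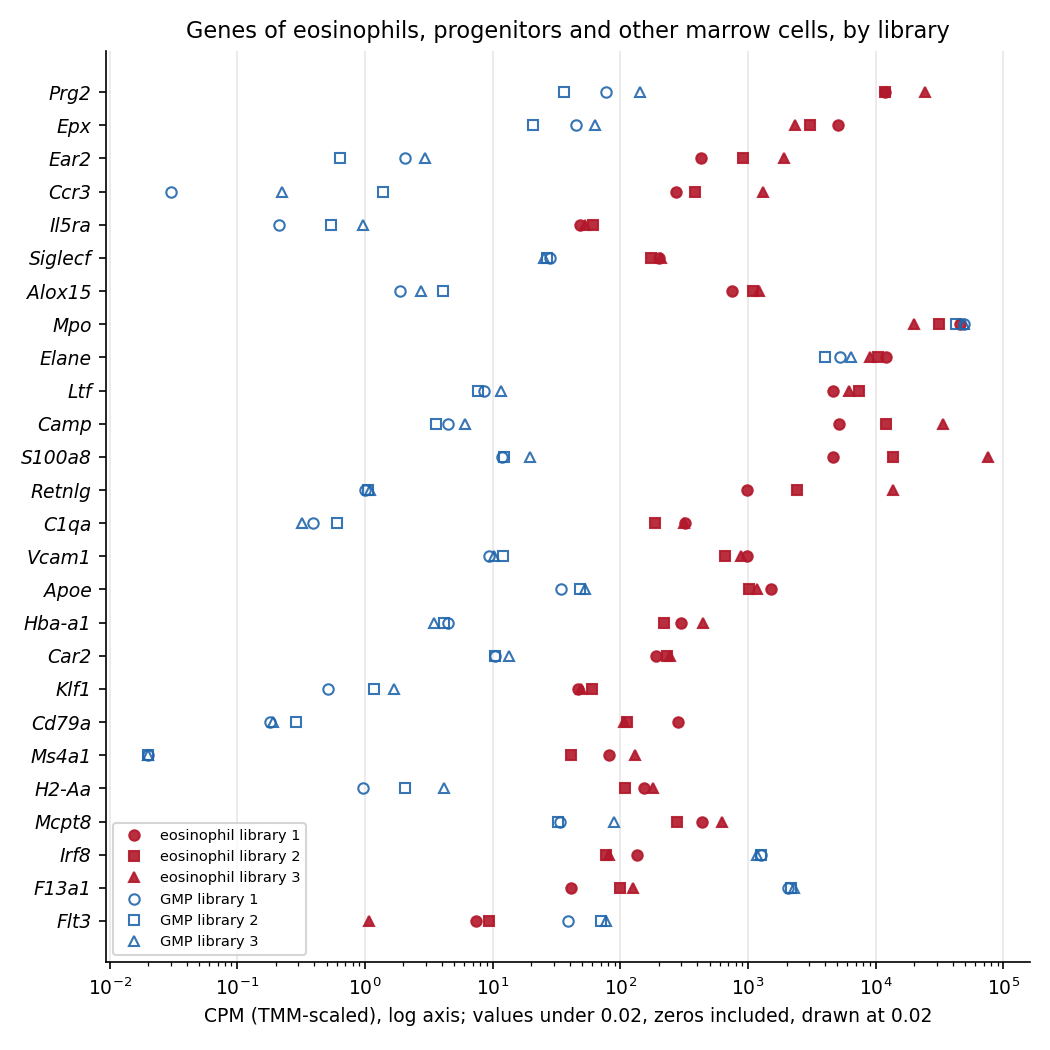
CPM on a log axis (x) of 26 genes (y) in each library, with filled red points for eosinophil libraries 1 to 3 and open blue points for GMP libraries 1 to 3; values under 0.02, zeros included, are drawn at 0.02. Prg2, Ccr3, Ltf, S100a8, C1qa, Hba-a1 and Cd79a lie higher in all 3 eosinophil libraries, Mpo overlaps, and Irf8, F13a1 and Flt3 lie lower.

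The eosinophil receptor list moved the same way, with 10 of 12 tested members higher and none lower. Without library 3, 12 of 14 were higher. Ccr3, the eotaxin receptor, rose from 0.0301, 1.38 and 0.224 CPM in GMPs to 274, 381 and 1318 CPM, a change of 10.24 ± 1.34 (adjusted p = 0.00360). Il5ra, the IL-5-binding chain of its receptor, was even across the eosinophil libraries at 47.9, 60.6 and 53.1 CPM, against 0.210, 0.545 and 0.959 CPM (6.55 ± 0.55, adjusted p = 0.000683). Siglecf, a surface lectin used to sort mouse eosinophils, was already present in GMPs at 28.2, 26.5 and 25.4 CPM and rose to 201, 175 and 206 CPM (2.86 ± 0.16). The adhesion receptors Adgre4 and Adgre1 (F4/80) rose by 7.15 ± 0.54 and 3.81 ± 0.35, and the UDP-glucose receptor gene P2ry14 by 4.47 ± 0.46. The signalling chain shared by the IL-5, IL-3 and GM-CSF receptors, Csf2rb, did not pass the test, with 253, 347 and 214 CPM in eosinophils overlapping 231, 238 and 283 CPM in GMPs. Csf2ra, the GM-CSF-binding chain, rose by 0.86 ± 0.18. The call of Csf2ra was lost without eosinophil library 2 or any 1 GMP library. Without library 3 the rise of Ccr3 was 9.24 and that of Adgre4 6.53.

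Several receptors were higher in resting than in marrow eosinophils, the reverse of the granule genes. Ccr3 averaged 2879 CPM, Siglecf 1190 CPM and Csf2rb 3456 CPM there. Control BMDEs had 16.9 CPM of Ccr3, below any marrow eosinophil library, and 122 CPM of Il5ra. The summed receptor list read 1650, 1916 and 3167 CPM in marrow eosinophils, 13970, 13753 and 13777 CPM in resting eosinophils and 3161 and 3299 CPM in control BMDEs.

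The list of enzymes and receptors of eicosanoids, lipid mediators of allergic inflammation, rose in 10 of 18 tested members and fell in none. Without library 3 the split was 11 higher and 1 lower. Alox15, the 12/15-lipoxygenase, read 743, 1096 and 1223 CPM against 1.89, 4.07 and 2.75 CPM (8.46 ± 0.43, adjusted p = 0.000131). Alox5, which starts leukotriene synthesis, rose by 5.20 ± 0.40 and its helper Alox5ap by 2.35 ± 0.40. Pla2g7, which breaks down platelet-activating factor, climbed from 0.0601, 0.545 and 0.511 CPM to 201, 220.2 and 611 CPM. Hpgds, the prostaglandin D synthase of blood cells, rose by 4.49 ± 0.50. Ltc4s, the leukotriene C4 synthase, stayed low at 1.20, 1.27 and 2.92 CPM although it passed the test (adjusted p = 0.0345). Alox15 and Alox5 averaged 1972 and 789 CPM in resting eosinophils and 651 and 589 CPM in control BMDEs, while Hpgds was at 0.439 and 40.7 CPM. Alox5ap was no longer called without GMP library 1 or 2, nor Ltc4s without eosinophil library 2 or any 1 GMP library.

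Among 25 tested granulocyte transcription factors, 10 rose and 2 fell (15 and 3 without library 3). The shares of all tested genes were 13% and 6.78% (20.1% and 16.4% without library 3). Gata1, which drives both the eosinophil and the erythroid lines, was at 95.7, 94.3 and 87.8 CPM against 2.25, 2.44 and 4.63 CPM (4.90 ± 0.34, adjusted p = 0.000354). Its level in resting eosinophils and BMDEs was 139.7 and 109 CPM. Cebpe, needed for late granule genes of eosinophils and neutrophils, rose by 3.75 ± 0.26, and the repressor Gfi1b by 3.85 ± 0.31. Id2, an inhibitor of E proteins, rose by 6.57 ± 0.74 and was highest in library 3 (195, 319.6 and 948 CPM). Gata2 rose by 1.87 ± 0.28. Zfpm1 (FOG-1), a GATA1 cofactor that opposes eosinophil fate, passed the test at a low level (2.14, 1.65 and 1.40 CPM against 0.270, 0.417 and 0.192 CPM, adjusted p = 0.0482). Cebpa, the factor that makes the GMP stage, read 15.7, 13.7 and 3.48 CPM against 12.8, 12.6 and 13.1 CPM and did not pass. The monocyte and dendritic cell factors Irf8 and Klf4 fell (-3.65 ± 0.27 and -3.22 ± 0.70). Counts of called factors changed when a library was left out, with 6 higher without eosinophil library 2 and 5, 5 and 6 without GMP libraries 1, 2 and 3. Each of those removals left 1 factor lower and ended the calls of Klf4 and Zfpm1, and Zfpm1 was also lost without eosinophil library 1. The rise of Id2 was 5.64 without library 3.

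The calls among progenitor genes were near the share over all genes (19.8%). Of 21 tested stem and progenitor genes, 1 rose and 3 fell, and the median was -0.10 (0.02 without library 3). Cd34, the surface mark of GMPs, fell from 619, 595 and 557 CPM to 152, 169.8 and 201 CPM (-1.76 ± 0.17, adjusted p = 0.00115). Flt3, a receptor of early progenitors, and Cd93 fell (-3.37 ± 0.74 and -2.52 ± 0.18). Kit, the SCF receptor, was at 399, 270.0 and 216 CPM in eosinophils and 474, 521 and 416 CPM in GMPs. The groups did not overlap for Kit, but its adjusted p was 0.105. In resting eosinophils Kit averaged 13.7 CPM and Cd34 6.75 CPM, both below the lowest marrow eosinophil library. Bcl11a was the 1 member of the list that rose (0.70 ± 0.19). Flt3 lost its call without eosinophil library 2 or any 1 GMP library, and Bcl11a without any 1 of the libraries other than eosinophil library 3. Leaving out eosinophil library 1 gave 5 lower members. With the length and GC offset the list had 1 higher and 5 lower.

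Without library 3 the progenitor list gave 4 higher and 7 lower members. Sox4, a factor of early progenitors, was called lower only without library 3 (-0.83, adjusted p = 0.0308), and not with all libraries (adjusted p = 0.0676).

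Genes of neutrophil primary granules, made at the promyelocyte stage, were high in both groups. Mpo, the neutrophil peroxidase, overlapped between eosinophils (45531, 31255 and 19823 CPM) and GMPs (49424, 42863 and 48981 CPM) and did not pass the test (-0.55 ± 0.32, adjusted p = 0.267). By TPM, which corrects for transcript length, Mpo ranked 2, 8 and 15 among all genes in eosinophil libraries 1 to 3 and 1 in each GMP library. Elane, neutrophil elastase, rose by 1.01 ± 0.24 (adjusted p = 0.0283) and ranked 4, 6 and 10 by TPM in eosinophils. Of the 11 tested members, 7 rose, among them Serpinb1a (2.51 ± 0.42), an inhibitor of these proteases, Ms4a3 (2.04 ± 0.54), a membrane gene of granulocyte and monocyte precursors, and Nkg7 (1.48 ± 0.22). Srgn, the granule proteoglycan, rose by 2.2 ± 0.52. The proteases Prtn3 and Ctsg did not pass the test (0.48 ± 0.21 and 0.60 ± 0.35). The members called higher were 3 without eosinophil library 2, and 1, 1 and 3 without GMP libraries 1, 2 and 3. Serpinb1a was lost without GMP library 1 or 2, Ms4a3 and Srgn without eosinophil library 2 or any 1 GMP library, and Elane without these or eosinophil library 1. With library 3 left out, 7 members rose and none fell, and Ms4a3 and Srgn rose by 1.26 and 1.42. Without eosinophil library 1, 1 member was lower.

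Mpo and Elane were low in the reference libraries. Mpo averaged 1.02 CPM and Elane 0.120 CPM in resting eosinophils, and 419 and 51.1 CPM in control BMDEs. Primary granule genes took 6.71, 4.95 and 3.43% of the counts of the marrow eosinophil libraries and 6.97, 6.27 and 7.17% of those of GMPs.

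Secondary granule genes, which mark neutrophil myelocytes and metamyelocytes, rose in all 14 tested members, with and without library 3, with every eosinophil library above every GMP library in each. Among all tested genes 13% were higher (20.1% without library 3), and 48.3% did not overlap between the groups in either direction. Ltf, lactoferrin, was at 4662, 7369 and 6146 CPM in eosinophils and 8.48, 7.72 and 11.5 CPM in GMPs (9.36 ± 0.36, adjusted p = 0.000113). Ngp, neutrophilic granule protein, read 10876, 17692 and 19267 CPM against 11, 7.31 and 10.5 CPM (10.70 ± 0.43). The antimicrobial peptide gene Camp read 5134, 12041 and 33839 CPM against 4.45, 3.59 and 6.10 CPM (11.82 ± 0.99), lowest in library 1 and highest in library 3. Lcn2, an iron-siderophore-binding lipocalin, rose by 8.01 ± 0.81, Itgb2l by 9.64 ± 0.54 and Olfm4 by 9.63 ± 0.74. The list took 2.63, 4.21 and 4.73% of eosinophil counts and 0.0374, 0.0332 and 0.0573% of GMP counts. The rise of Camp was 10.82 without library 3.

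Beside them, resting eosinophils held 32.2 CPM of Ltf and 2.38 CPM of Camp, and control BMDEs 1039 and 73.7 CPM. Ngp averaged 492 and 3022 CPM in the same groups. The summed list was 26099, 46128 and 68673 CPM in marrow eosinophils, 1621, 1601 and 1565 CPM in resting eosinophils and 6318 and 5465 CPM in BMDEs. How much of the marrow eosinophils' level came from neutrophil precursors was not tested.

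Genes of tertiary granules and of mature neutrophils moved with library 3. Of 17 tested members 14 rose and none fell, and without library 3 the count was 15 higher and 1 lower. S100a8, a subunit of calprotectin, was at 4648, 13677 and 75382 CPM in eosinophils and 11.8, 12.2 and 19.7 CPM in GMPs, a rise of 11.07 ± 1.38 with library 3 and 9.29 without it. It ranked 1 by TPM in each eosinophil library. Its partner S100a9 read 4664, 13894 and 44808 CPM against 6.67, 6.12 and 9.17 CPM. Retnlg, a resistin-like secreted protein, read 983, 2401 and 13606 CPM against 0.992, 1.06 and 1.09 CPM (12.40 ± 1.37, or 10.65 without library 3). In all 3 genes library 3 was highest by a wide margin.

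The gelatinase gene Mmp9 was even across eosinophil libraries (532, 779 and 846 CPM, rise 8.91 ± 0.68). Mmp25, a membrane-bound relative, had 1 count over the GMP libraries and read 39.5, 56.5 and 23.9 CPM. Cxcr2, which leads mature neutrophils out of marrow, rose by 2.58 ± 0.37. Together the list took 1.21, 2.98 and 9.49% of eosinophil counts. Library 3 was the highest eosinophil library for 12 of the 17 tested members, library 1 for 1 and library 2 for 4. Over all tested genes those shares were 40.5%, 36.5% and 23.0%. The list's median was 8.11, or 6.99 with the gene at 0 in all GMPs set to its bound, and 6.02 without library 3. Leaving out GMP library 1 gave 9 members called higher.

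Not all of these genes are quiet in eosinophils elsewhere in the series. Retnlg, Mmp9 and Mmp25 averaged 1613, 563 and 1053 CPM in resting eosinophils. S100a8 averaged 8.02 CPM and S100a9 46.6 CPM there, against 2371 and 2788 CPM in control BMDEs.

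Monocyte genes formed the list with the lowest median (-1.68), with 8 of 15 tested members lower and 2 higher. F13a1, a transglutaminase of the monocyte line, fell from 2070, 2179 and 2272 CPM to 40.9, 99.0 and 125 CPM (-4.62 ± 0.44, adjusted p = 0.00112). Irf8 fell from 1260, 1255 and 1184 CPM to 135, 77.3 and 81.7 CPM, with no overlap. Ccr2, the receptor that draws monocytes out of marrow, fell (-2.67 ± 0.47), Csf1r, the M-CSF receptor, too (-1.68 ± 0.22), and Ly86, a partner of a TLR-like receptor, as well (-1.80 ± 0.40). Ly6c2, shared by monocytes and neutrophil precursors, overlapped between groups (938, 1914 and 2701 CPM against 1435, 1152 and 1832 CPM). The high-affinity Fc receptor gene Fcgr1 and the cathepsin gene Ctss rose by 4.93 ± 0.62 and 1.29 ± 0.31. The calls without library 3 were 2 higher and 9 lower. Without eosinophil library 2 or GMP libraries 1, 2 and 3 in turn, 5, 4, 4 and 5 members were lower, and without any 1 GMP library 1 was higher. Ccr2 was lost without eosinophil library 2, and Ly86 and Ctss without any 1 GMP library. The fall of Ccr2 without library 3 was -3.35.

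Genes of resident marrow macrophages went the other way, and 17 of 19 tested members rose. Without library 3, 20 of 21 rose. C1qa, a chain of complement C1q, was at 322, 186 and 316 CPM in eosinophils against 0.391, 0.609 and 0.320 CPM in GMPs (9.27 ± 0.41, adjusted p = 0.000113). Its partners C1qb and C1qc rose by 9.21 ± 0.60 and 7.92 ± 0.94, and C1qc was several times higher in library 1 (329.6, 70.6 and 58.7 CPM). Vcam1, by which island macrophages hold erythroblasts, read 982, 661 and 876 CPM against 9.29, 12.02 and 10.3 CPM (6.31 ± 0.26). Apoe, a lipid carrier, read 1515, 1009 and 1186 CPM against 34.5, 48.5 and 53.2 CPM (4.77 ± 0.28). Slc40a1, which encodes the iron exporter ferroportin, rose by 5.72 ± 0.31, and Cd5l, a scavenger protein of macrophages, read 173, 95.9 and 93.6 CPM against 0, 0.128 and 0.192 CPM. Timd4, a receptor for dying cells, had no count in any GMP library and was at least 462.4-fold higher, taking 3 counts over the group as the floor.

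Resting eosinophils had 0.548 CPM of C1qa, 6.98 CPM of Vcam1 and 0.0208 CPM of Cd5l. In control BMDEs, which grow from whole marrow, the values were 23.0, 193 and 29.6 CPM. The list took 0.582, 0.311 and 0.291% of eosinophil counts and 0.00830, 0.0118 and 0.0107% of GMP counts. Library 1 was the highest eosinophil library for 14 of 19 tested members, library 2 for 1 and library 3 for 4. Over all tested genes those shares were 36.5%, 23.0% and 40.5%. Whether these messages came from macrophages among the isolated cells was not tested.

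Erythroid genes rose as well. Of the 12 tested early erythroid genes 9 rose (10 without library 3), and of 17 late genes 11 rose (13 of 19). None fell in either list with all libraries or without library 3. Hba-a1, an alpha-globin gene, read 299, 221 and 442 CPM in eosinophils and 4.45, 4.13 and 3.48 CPM in GMPs (6.31 ± 0.34, adjusted p = 0.000147). Hba-a2, a near-identical copy that shares reads with it, rose by 6.75 ± 0.35. The beta-globin genes Hbb-bs and Hbb-bt rose by 6.86 ± 0.70 and 7.25 ± 0.63, both highest in library 3, and as near copies their split is uncertain too. Among the late genes, the red cell membrane gene Ermap read 28.9, 31.7 and 15.6 CPM and the blood group gene Rhd 6.94, 12.02 and 18.7 CPM in eosinophils. The call of Rhd was lost without GMP library 2. Leaving out library 3 gave rises of 5.99 for Hbb-bs and 6.53 for Hbb-bt.

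The early members covered the colony-forming to erythroblast stages. Klf1, the master factor of erythroid genes, was even at 46.8, 59.6 and 49.5 CPM against 0.511, 1.19 and 1.69 CPM (5.52 ± 0.48, adjusted p = 0.000772). Car1, a carbonic anhydrase, read 157, 408 and 651 CPM against 1.50, 1.28 and 2.56 CPM (7.83 ± 0.68). The erythropoietin receptor gene Epor rose by 5.25 ± 0.58, Aqp1 (a water channel) by 4.57 ± 0.39 and Rhag by 6.43 ± 1.05. The transferrin receptor gene Tfrc did not pass (-0.08 ± 0.22). Klf1 and Car1 averaged 0.0208 and 0.102 CPM in resting eosinophils and 3.85 and 0.146 CPM in control BMDEs. Gata1, Gfi1b and Zfpm1 stand in this list and among the granulocyte factors. Gata1 and Gfi1b were expressed in resting eosinophils (139.7 and 58.0 CPM). Globin in resting eosinophils was 21.2 CPM for Hba-a1. The late list took 0.139, 0.126 and 0.184% of eosinophil counts, and the part of erythroid cells in the result was not tested. Rhag was not called without GMP library 1.

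Cd79a and Ms4a1, which mark B cells, were at or near 0 in GMPs and present in every eosinophil library. In the pro-B and pre-B list 9 of 13 tested members rose (12 without library 3), and in the mature B cell list 12 of 14 (15). Cd79a, a chain of the B cell receptor, read 284, 113 and 106 CPM against 0.1803, 0.288 and 0.192 CPM (9.55 ± 0.61, adjusted p = 0.000289), highest in library 1. Ms4a1 (CD20) was at 81.5, 41.1 and 129 CPM and the IgM Fc receptor gene Fcmr at 90.2, 35.8 and 44.7 CPM. Neither had a count in any GMP library, so they were at least 2677-fold and 1816-fold higher (1956-fold and 2011-fold without library 3). Cd22, an inhibitory lectin of B cells, rose by 6.60 ± 0.46 and Ltb, lymphotoxin beta, by 7.39 ± 0.36. The surrogate light chain genes of precursor B cells were low: Vpreb1 read 3.38, 2.69 and 4.55 CPM, Igll1 3.09, 3.23 and 5.44 CPM and Vpreb3 26.5, 9.29 and 17.0 CPM, and all 3 were called. Any 1 GMP library left out gave 5 pro-B and pre-B members called, and Vpreb1 and Igll1 were lost without one of them or without eosinophil library 2.

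Library 1 was the highest eosinophil library for 10 of 14 tested mature B cell genes, library 2 for none and library 3 for 4. Over all tested genes those shares were 36.5%, 23.0% and 40.5%. Resting eosinophils carried some of these messages, with 23.5 CPM of Ms4a1 and 30.5 CPM of Cd79a but 0.373 CPM of Fcmr. Control BMDEs had 39.4, 38.9 and 18.7 CPM. The mature B cell list summed to 817, 439 and 564 CPM in marrow eosinophils and 775, 763 and 768 CPM in resting eosinophils. Plasma cell genes gave 2 calls of 7. Jchain, which joins secreted antibodies, was at 0, 15.5 and 27.8 CPM, with no count in library 1. Plasma cell genes gave 1 call without eosinophil library 1 or 2 or GMP library 3, and none without GMP library 1 or 2.

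MHC class II genes, used by B cells, macrophages and dendritic cells to present antigen, rose in 7 of 10 tested members (8 without library 3). Cd74, the invariant chain, was at 1235, 447 and 437 CPM against 4.12, 6.70 and 12.6 CPM (6.50 ± 0.69). H2-Aa, H2-Ab1 and H2-Eb1 rose by 5.95 ± 0.58, 4.53 ± 0.39 and 6.44 ± 0.41. The peptide-loading gene H2-DMa did not pass and was at 105, 99.7 and 106 CPM against 137, 124 and 158 CPM. Resting eosinophils averaged 137 CPM of Cd74 and BMDEs 882 CPM.

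Conventional dendritic cell genes gave 3 higher and 1 lower of 8, and their defining genes Xcr1 (0.0727, 0.154 and 1.35 CPM) and Clec9a (0, 0.269 and 0.0561 CPM) were near 0. Of the plasmacytoid list, 2 rose and 1 fell of 6, with Siglech at 5.05, 3.49 and 2.86 CPM. T cell genes rose in 4 of 9 tested members, but Cd3e read 0.109, 0.269 and 0 CPM and Cd3d 0.908, 1.80 and 0.561 CPM. NK cell genes rose in 2 of 6, and platelet genes in 3 of 12. Over all tested genes 13% were higher and 6.78% lower, or 20.1% and 16.4% without library 3. The platelet median was 1.49, and -0.28 without library 3. The platelet chemokine gene Pf4 overlapped between groups (2.29, 3.38 and 28.5 CPM against 6.37, 13.2 and 8.76 CPM), and without library 3 it was called lower (-1.74, adjusted p = 0.0119). Among stromal genes Cxcl12, which keeps progenitors in the niche, rose by 5.09 ± 0.32, and the collagen gene Col1a1 stood at 5.05, 6.41 and 58.3 CPM, mostly in library 3. These small counts changed when a library was left out. Without any 1 GMP library, both dendritic cell lists had 1 gene higher and none lower. The platelet and stromal lists then had 1 higher, with the call of Col1a1 lost. T cell calls were 2, 1 and 1 without GMP libraries 1, 2 and 3, and NK cell calls 0, 1 and 0. Without eosinophil library 2 the plasmacytoid list had 1 higher and none lower and the NK list no call, and without eosinophil library 1 the NK list had 1. Leaving out eosinophil library 3 gave 4 higher in the plasmacytoid list and 5 higher and 3 lower in the conventional one. The same removal gave 6 higher and 1 lower T cell genes, 3 and 1 NK genes, 3 and 2 platelet genes and 5 and 1 stromal genes. A lower T cell gene was also called without eosinophil library 2, and a lower NK gene without eosinophil library 1. With the length and GC offset both dendritic cell lists had 2 lower.

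Mast cell and basophil genes rose in all 10 tested members, with and without library 3. Mcpt8, a basophil protease, read 438, 277 and 621 CPM against 33.8, 32.3 and 88.5 CPM (3.11 ± 0.51, adjusted p = 0.00832). Prss34, another basophil protease, read 1026, 446 and 569 CPM against 40.8, 36.0 and 156 CPM (3.13 ± 0.67). Cpa3, the carboxypeptidase of mast cells and basophils, rose by 3.49 ± 0.48, the IgE receptor chain Fcer1a by 4.34 ± 1.07, and Hdc, which makes histamine, by 1.74 ± 0.22. Mcpt8, Prss34 and Cpa3 averaged 2.42, 3.09 and 0.910 CPM in resting eosinophils but 828, 1582 and 1028 CPM in control BMDEs. Il4, which basophils and eosinophils make, read 3.27, 4.68 and 28.9 CPM in marrow eosinophils and 38.0 CPM in resting ones. Without GMP library 2, 5 of the 10 were called. Prss34 was lost without GMP library 1 or 2, Fcer1a without these or eosinophil library 2, and Il4 without GMP library 2. Cpa3 and Fcer1a rose by 2.90 and 3.20 without library 3.

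**Figure D3:**
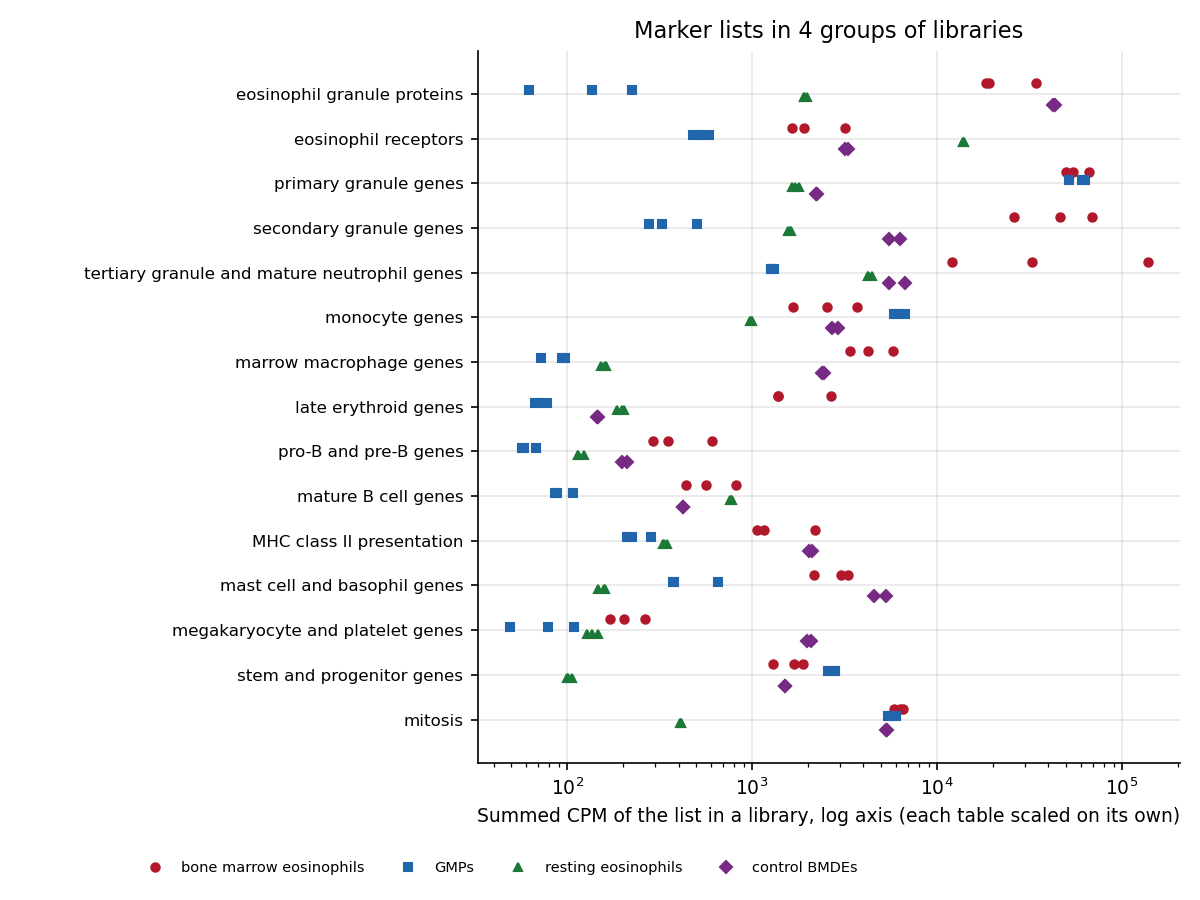
Summed CPM of 15 gene lists (y axis) in each library of 4 groups on a log axis, with 1 point per library; the marrow eosinophils and GMPs share a table, and resting eosinophils and control BMDEs were each scaled in their own. Granule genes of eosinophils and neutrophils, macrophage and late erythroid genes are higher in marrow than in resting eosinophils, and eosinophil receptors are lower.

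Calls among mitosis genes were near the shares over all genes, 13% higher and 6.78% lower. Without library 3 those shares were 20.1% and 16.4%. Of 40 tested mitosis genes 5 rose and 2 fell, with a median of 0.09 (9 and 6 without library 3). Cdk1, the kinase that starts mitosis, was at 174, 275 and 364 CPM against 125, 108 and 116 CPM (1.22 ± 0.27, adjusted p = 0.0242). The ubiquitin-conjugating gene Ube2c and the polo kinase Plk1 rose by 1.32 ± 0.21 and 0.83 ± 0.22. The cyclins Ccnb1, Ccnb2 and Ccna2 did not pass (0.28 ± 0.17, 0.38 ± 0.16 and -0.02 ± 0.17). The kinesin Kif15 and the kinetochore gene Knl1 fell (-0.93 ± 0.21 and -0.89 ± 0.24). Cdk1 averaged 2.00 CPM in resting eosinophils and 103 CPM in control BMDEs, each scaled in its own table. The marrow eosinophil libraries read above both, and how much of their level came from other dividing cells was not tested. The mitosis calls changed when a library was left out, as did those over all genes. They were 1 higher and none lower without eosinophil library 2 or any 1 GMP library, and 8 higher without eosinophil library 1. Cdk1, Kif15 and Knl1 were lost without eosinophil library 2 or any 1 GMP library, and Plk1 without these or eosinophil library 1. With the length and GC offset 2 mitosis genes rose and 2 fell.

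DNA replication genes gave 8 lower and none higher of 39, and 13 lower and 1 higher without library 3. Of all tested genes, 6.78% were lower and 13% higher, or 16.4% and 20.1% without library 3. Pola1 and Pole, catalytic subunits of replicative polymerases, fell (-1.49 ± 0.22 and -1.22 ± 0.24). Orc1, an origin-binding subunit, fell (-1.40 ± 0.35). The helicase genes Mcm4 and Mcm6 fell (-0.82 ± 0.15 and -0.84 ± 0.17), while Mcm2, Mcm3 and Mcm5 did not pass (-0.69 ± 0.25, -0.94 ± 0.30 and -0.61 ± 0.25). The G1 list rose in 6 and fell in 2 of 21 tested members. Cdkn2d, an inhibitor of CDK4 and CDK6, read 132, 189 and 166 CPM against 34.5, 25.2 and 36.4 CPM (2.34 ± 0.22). The antiproliferative genes Btg2 and Btg1 rose by 2.54 ± 0.31 and 1.96 ± 0.37, and Ccnd3 (cyclin D3) by 1.29 ± 0.23. Ccnd2 and Cdk4 fell (-0.88 ± 0.24 and -0.67 ± 0.17). Replication genes gave 1 lower without any 1 GMP library and 4 without eosinophil library 2. G1 genes gave 3 higher without GMP library 1 or 2, none lower without any 1 GMP library or eosinophil library 2, and 5 lower without eosinophil library 3. Any 1 GMP library left out ended the calls of Pole, Orc1, Mcm4, Mcm6, Btg1, Ccnd2 and Cdk4, and GMP libraries 1 and 2 also that of Ccnd3. Pole, Mcm6, Ccnd2 and Cdk4 were lost without eosinophil library 2 too, and Orc1 and Cdk4 without eosinophil library 1. Without eosinophil library 1, 1 replication gene was higher. Without eosinophil library 3, 8 G1 genes were higher, and with the offset 4 were lower.

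Ribosome biogenesis genes fell in 19 of 38 tested members and rose in none (25 and 0 without library 3), against 6.78% of all genes lower. Utp20, of the small-subunit processome, fell from 75.0, 91.3 and 67.0 CPM to 22.8, 19.7 and 9.71 CPM (-2.16 ± 0.34, adjusted p = 0.00717). Heatr1 and the polymerase I subunit Polr1a fell (-1.39 ± 0.19 and -1.37 ± 0.29), and Dkc1, the pseudouridine synthase, also (-1.15 ± 0.17). Ncl (nucleolin) read 489, 477 and 559 CPM against 882, 852 and 869 CPM, and Nop56 fell (-0.73 ± 0.14). Nop58 and Fbl did not pass (-0.48 ± 0.25 and -0.70 ± 0.33). The number lower was 11 without eosinophil library 2 and 6, 9 and 9 without GMP libraries 1, 2 and 3. In each case Polr1a, Ncl and Nop56 were not called.

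Enzymes of one-carbon, purine and pyrimidine synthesis fell in 10 of 23 and rose in none (18 and 2 without library 3). Phgdh, the first enzyme of serine synthesis, read 302, 382 and 251 CPM against 728, 586 and 792 CPM (-1.17 ± 0.22, adjusted p = 0.0128). Shmt2, the mitochondrial serine hydroxymethyltransferase, fell (-0.96 ± 0.19), and the purine enzymes Gart and Atic likewise (-1.04 ± 0.24 and -1.01 ± 0.25). In resting eosinophils Phgdh and Shmt2 averaged 2.52 and 13.1 CPM, and in control BMDEs 139 and 128 CPM. Endoplasmic reticulum folding genes gave 8 lower of 28 (14 without library 3). The chaperones Hspa5, Hsp90b1 and Hyou1 fell (-0.76 ± 0.17, -0.94 ± 0.15 and -1.20 ± 0.29), and Canx (calnexin) too (-0.88 ± 0.15). Calr and Pdia3 did not pass (-0.53 ± 0.20 and -0.55 ± 0.17). Cholesterol synthesis gave 2 higher and 1 lower of 21, against 13% and 6.78% of all genes. Its median turned from 0.13 to -0.09 with the length and GC offset, while that of all genes moved from 0.01 to -0.04. Leaving out a library changed the calls of all 3 lists. Without GMP libraries 1, 2 and 3 in turn, 0, 2 and 0 one-carbon enzymes and 0, 2 and 1 folding genes were lower, against 6 and 2 without eosinophil library 2. Cholesterol genes gave no call without any 1 GMP library, 1 higher and none lower without eosinophil library 2, 5 higher and 2 lower without eosinophil library 3, and 2 lower without eosinophil library 1. Shmt2 and Gart were lost without any 1 GMP library, Phgdh and Canx without GMP library 1 or 3, Hsp90b1 without GMP library 1, and Atic, Hspa5 and Hyou1 without eosinophil library 2 or any 1 GMP library. Leaving out eosinophil library 1 gave 4 folding genes higher, where none was higher with all libraries. With the offset 1 cholesterol gene was higher and none lower.

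**Figure D4:**
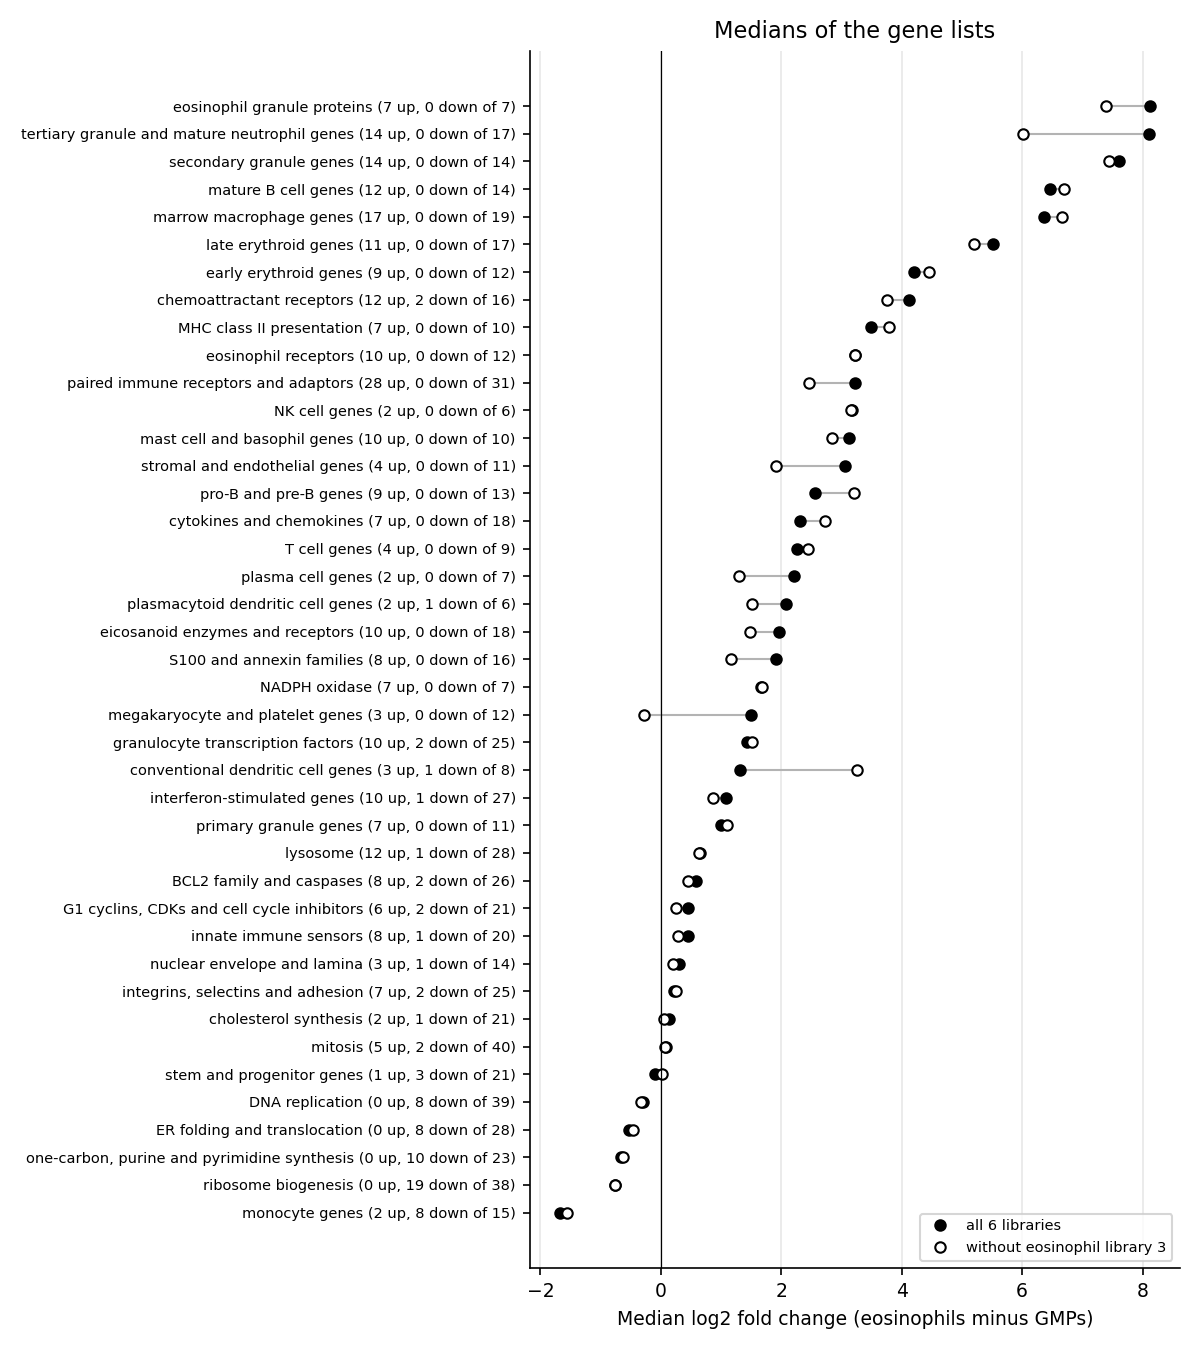
Median log2 fold change (x axis) of the tested members of each of 41 gene lists (y axis, with the number called higher and lower of those tested). Filled points use all 6 libraries and open points leave out eosinophil library 3; 3 of the lists with the highest medians are eosinophil granule (8.13), tertiary granule and mature neutrophil (8.11) and secondary granule genes (7.61).

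Of 14 tested genes of the nuclear envelope, 3 rose and 1 fell, against 13% and 6.78% of all tested genes. Syne1 (nesprin-1) read 132, 159.6 and 179 CPM against 8.69, 8.65 and 6.87 CPM (4.28 ± 0.21, adjusted p = 0.000131) and averaged 3406 CPM in resting eosinophils. Lmna, lamin A and C, rose by 3.47 ± 0.53 from a low level (9.23, 10.98 and 6.06 CPM), and Lmnb1 (lamin B1) fell (-0.63 ± 0.18). Lbr, whose level sets nuclear lobing in granulocytes, did not pass (732, 737 and 690.0 CPM against 650.4, 699 and 647 CPM). Lmna was lost without GMP library 1, leaving 1 higher member, and Lmnb1 without any 1 of the libraries other than eosinophil library 3. Calls without library 3 were 4 higher and 1 lower, against 20.1% and 16.4% of all tested genes.

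Receptors for chemoattractants rose in 12 and fell in 2 of 16 tested members (18 and 2 of 21 without library 3). Ltb4r1, the leukotriene B4 receptor, read 505, 587 and 428 CPM against 58.5, 50.02 and 71.4 CPM (3.08 ± 0.22, adjusted p = 0.000360). The formyl peptide receptor genes Fpr1 and Fpr2 read 19.9, 40.0 and 61.2 and 3.92, 24.4 and 60.3 CPM. Fpr2 had no count in GMPs and was at least 942.8-fold higher. C3ar1, the receptor for complement C3a, rose by 8.56 ± 1.07 and Ccr1 by 4.65 ± 0.82. C3ar1 and Ccr1 averaged 361 and 396 CPM in resting eosinophils, whereas Fpr1 and Fpr2 were at 0.542 and 1.88 CPM. Ccr2 and Cx3cr1, both of the monocyte line, were the members that fell. Of the calls, Fpr2 was lost without eosinophil library 2 or GMP library 2, Ccr1 without GMP library 2, Ccr2 without eosinophil library 2 and Cx3cr1 without GMP library 1 or 2, and each removal that ended Ccr2 or Cx3cr1 left 1 member lower. Without library 3 the bound for Fpr2 was 451.9-fold, and C3ar1 and Ccr1 rose by 7.90 and 3.76. With the length and GC offset 1 member was lower.

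Of the adhesion list 7 rose and 2 fell of 25, against 13% and 6.78% of all tested genes. Itgam (CD11b) rose from 36.9, 40.5 and 41.5 CPM to 554, 670.3 and 634 CPM (3.97 ± 0.17, adjusted p = 0.000113), and its partner Itgb2 by 3.61 ± 0.18. Both averaged more in resting eosinophils (3177 and 1533 CPM). Itgad, a beta-2 integrin chain found on macrophages, read 77.1, 43.2 and 19.6 CPM in marrow and 1.76 CPM in resting eosinophils. Itga1, a collagen receptor chain, fell from 63.0, 62.5 and 45.7 CPM to 0, 1.15 and 0.561 CPM (-6.64 ± 1.00), and Pecam1 fell (-1.10 ± 0.21). The list median changed sign, from 0.22 to -0.08, with the length and GC offset, while that of all genes moved from 0.01 to -0.04. Without any 1 GMP library 4 members were higher and 1 lower, with Pecam1 lost, and without eosinophil library 3 the lower members numbered 5. The higher members without that library numbered 8, where 20.1% of all tested genes were higher and 16.4% lower.

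Paired immunoglobulin-like and lectin receptors with their adaptors rose in 28 of 31 tested members (30 without library 3). Library 3 was the highest eosinophil library for 26 of the 31, against 40.5% of all tested genes. Pirb, an inhibitory receptor of myeloid cells, read 162, 232 and 239 CPM against 8.14, 13.5 and 11.1 CPM (4.27 ± 0.28, adjusted p = 0.000302). Cd300lf, a lipid-sensing receptor, rose by 8.04 ± 0.64, Lilr4b by 6.56 ± 0.88 and Pilra by 5.89 ± 0.27. The adaptor Tyrobp (DAP12) read 399, 839.6 and 2360 CPM against 227, 192 and 273 CPM, and its rise was 2.38 ± 0.62, or 1.42 without library 3. Pirb and Cd300lf averaged 1091 and 333 CPM in resting eosinophils, and Pilra 5.35 CPM. Several of these genes have close copies, so reads may be split among them. Leaving out GMP library 1 or 2 gave 16 members called higher. Tyrobp was lost without eosinophil library 2 or any 1 GMP library. Lilr4b rose by 5.58 without library 3.

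All 7 tested genes of the phagocyte NADPH oxidase, which makes superoxide, rose with and without library 3. Its membrane subunits Cybb and Cyba rose by 2.52 ± 0.18 and 2.98 ± 0.32. Cybb read 1028, 1254 and 1152 CPM against 178, 193 and 229 CPM, with no overlap. The cytosolic subunits Ncf1 and Ncf4 rose by 1.66 ± 0.17 and 1.89 ± 0.21, and the GTPase gene Rac2 by 1.47 ± 0.20. Cybb and Ncf1 averaged 1449 and 2084 CPM in resting eosinophils.

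Lysosomal genes rose in 12 and fell in 1 of 28. For all tested genes the shares were 13% and 6.78%, or 20.1% and 16.4% without library 3. Lgmn, an asparagine endopeptidase of macrophages and other antigen-presenting cells, read 226, 114 and 147 CPM against 4.96, 3.72 and 5.94 CPM (5.06 ± 0.35), and averaged 20.4 CPM in resting eosinophils. Cd63, a granule and lysosome membrane protein, rose by 4.09 ± 0.45, and the proteases Ctsd and Ctsb by 1.90 ± 0.19 and 1.42 ± 0.24. Ctsz fell (-0.70 ± 0.19). Among innate sensors 8 rose and 1 fell of 20, with Tlr13, a sensor of bacterial RNA, up by 4.75 ± 0.60 and the beta-glucan receptor gene Clec7a lower (-1.39 ± 0.22). Tlr4 rose by 1.52 ± 0.30 and Tlr2 did not pass (27.4, 32.8 and 32.4 CPM against 32.1, 32.7 and 33.8 CPM). Lysosomal genes gave 5, 5 and 7 higher without GMP libraries 1, 2 and 3. Of all tested genes, 622 of 12636, 704 of 12572 and 754 of 12629 were then higher. The lysosomal list gave none lower without any 1 GMP library or without eosinophil library 2, where Ctsz was lost. It gave 2 lower without eosinophil library 1. Sensors gave 2, 2 and 4 higher without GMP libraries 1, 2 and 3, 5 higher without eosinophil library 2, and 2 and 4 lower without eosinophil libraries 1 and 3. Ctsb and Tlr4 were lost without GMP library 1 or 2. Without eosinophil library 3, 14 lysosomal genes were higher and 1 lower, 8 sensors were higher, and Tlr13 rose by 4.10. With the offset 2 lysosomal genes and 3 sensors were lower.

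Interferon-stimulated genes rose in 10 and fell in 1 of 27, beside 13% and 6.78% of all tested genes (20.1% and 16.4% without library 3). Irf7, a factor that amplifies interferon output, read 24.5, 34.7 and 25.0 CPM against 2.13, 2.31 and 3.52 CPM (3.40 ± 0.35, adjusted p = 0.00136). Rsad2 (viperin) rose by 4.58 ± 0.60. Ifit1 and Ifit2 did not pass, and the GTPase gene Gbp3 fell from 114, 124 and 125 CPM to 13.5, 21.6 and 17.2 CPM (-2.80 ± 0.22). Interferon-stimulated genes called higher numbered 5 without eosinophil library 2 and 3, 3 and 5 without GMP libraries 1, 2 and 3. Without eosinophil library 3, 14 were higher and 1 lower, and Rsad2 rose by 3.90.

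In the BCL2 and caspase list 8 rose and 2 fell of 26. All tested genes gave 13% higher and 6.78% lower, or 20.1% and 16.4% without library 3. Bcl2 fell from 97.3, 144 and 72.2 CPM to 10.4, 8.72 and 17.7 CPM (-3.09 ± 0.38, adjusted p = 0.00287). Its relatives Bcl2l1 (BCL-XL) and Mcl1 rose by 1.10 ± 0.16 and 1.15 ± 0.20. Mcl1 averaged 1559 CPM in resting eosinophils, against 53.0, 46.4 and 62.5 CPM in marrow. The death receptor gene Fas rose by 5.04 ± 0.67, and the Bcl2a1 copies Bcl2a1a and Bcl2a1b by 6.36 ± 1.50 and 4.97 ± 0.73, which share reads. Without eosinophil library 2 the list gave 5 higher, without GMP libraries 1, 2 and 3 it gave 4, 5 and 4 higher and 1 lower, and without eosinophil library 3 it gave 4 lower. Mcl1 was lost without GMP library 1 or 3, and Bcl2a1a without eosinophil library 2 or any 1 GMP library. Leaving out library 3 gave 10 higher, with Fas, Bcl2a1a and Bcl2a1b up by 4.27, 4.63 and 4.26. With the length and GC offset 4 members were higher and 2 lower.

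Secreted factors gave 7 higher and none lower of 18 (14 higher without library 3). Ccl6, a chemokine of myeloid cells, read 1169, 2254 and 8558 CPM against 7.66, 10.8 and 12.5 CPM (8.60 ± 0.95, or 7.37 without library 3) and averaged 5033 CPM in resting eosinophils. Il1b rose by 5.57 ± 0.70, Il18 by 6.06 ± 0.86, and Csf1, the growth factor of macrophages, by 2.10 ± 0.24. Il5 had no count in marrow eosinophils. Among S100 and annexin genes 8 of 16 rose and none fell. Library 3 was the highest eosinophil library for 15 of these 16, against 40.5% of all tested genes. Anxa1, which damps neutrophil entry into tissue, read 1283, 2846 and 5359 CPM against 207, 216 and 285 CPM (3.74 ± 0.53), and S100a6 rose by 3.42 ± 0.74, or 2.23 without library 3. Without GMP library 2 there were 4 secreted factors higher. Any 1 GMP library left out gave 5 S100 and annexin genes higher and ended the call of S100a6. Without library 3, 9 of the S100 and annexin genes rose and none fell, and the rise of Anxa1 was 3.12.

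Among genes outside the lists, those called higher that also stood at 10 CPM or more in every resting eosinophil and control BMDE library were led by Serpinb2, a protease inhibitor of myeloid cells, at 23.7, 58.7 and 148 CPM. It had 3 counts over the GMP libraries, and it averaged 758 CPM in resting eosinophils and 82.4 CPM in BMDEs. Chil3, a chitinase-like protein of neutrophil precursors and macrophages, read 5480, 10184 and 8657 CPM against 14.5, 15.4 and 25.6 CPM (8.78 ± 0.45), and 40.9 and 1291 CPM in the reference groups. The Src-family kinase gene Fgr rose by 8.59 ± 0.37, the sheddase genes Adam8 and Adam19 by 7.20 ± 0.37 and 7.09 ± 0.94, and the phosphatase gene Inpp5j by 7.03 ± 0.41. Adam8, Adam19 and Inpp5j averaged 1563, 1092 and 1007 CPM in resting eosinophils. Dapk2, a kinase of granulocytes, rose by 7.90 ± 0.81, the receptor gene P2ry10 by 6.87 ± 0.81 and the desaturase gene Scd1 by 7.55 ± 1.44. Scd1 was lost without GMP library 2 or 3. Adam19 and P2ry10 rose by 5.89 and 6.07 without library 3.

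Other genes called higher were below 1 CPM in every resting eosinophil and control BMDE library. Fcna, a ficolin made by macrophages, read 373, 179 and 299 CPM against 0.631, 0.545 and 0.447 CPM (9.02 ± 0.41, adjusted p = 0.000113), and averaged 0.0778 and 0.0292 CPM in the reference groups. Orm1, an acute-phase protein gene, read 21.1, 56.2 and 92.7 CPM against 0.0902, 0.128 and 0.0639 CPM (9.17 ± 0.76). Col14a1, a collagen, rose by 7.59 ± 0.61 and Cmbl, a hydrolase gene, by 7.78 ± 0.70. A gene that missed this class on its BMDE level was the scavenger receptor gene Stab2. It read 20.4, 8.95 and 5.95 CPM, had no count in GMPs and was at least 375.4-fold higher, and averaged 0.0208 and 4.85 CPM.

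Counted over all genes, 1566 of the 1585 called higher had values in both reference tables. Of these 994 (63.5%) stood at 10 CPM or more in every resting eosinophil and control BMDE library, and 77 (4.92%) were under 1 CPM in every one. Among all tested genes the shares were 60.1% and 5.32%. Genes that rose at least 16-fold differed from this. Of 397 such genes with values, 130 (32.7%) reached 10 CPM in every reference library and 55 (13.9%) were under 1 CPM in every one. Of 806 genes called lower, 537 (66.6%) reached 10 CPM and 24 (2.98%) were under 1 CPM. Since the tables were scaled apart and the classes were set by level, these shares are descriptions with no test.

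Falls were also seen for genes outside the lists. Il6st (gp130), the signalling chain of the IL-6 receptor family, fell from 164, 190.3 and 164 CPM to 2.29, 5.57 and 0.168 CPM (-5.98 ± 0.93, adjusted p = 0.00686). Met, the hepatocyte growth factor receptor, fell from 83.8, 93.2 and 79.9 CPM to 2.83, 2.38 and 0.168 CPM (-5.54 ± 0.79). Library 3 was lowest for both, and without it the changes were -5.47 and -5.04. Vdr, the vitamin D receptor, and Il1r1, an IL-1 receptor, fell (-4.28 ± 1.12 and -5.55 ± 1.48). Serpinf1, a secreted serpin, fell (-3.39 ± 0.23), and Tifab, an adaptor of innate signalling, from 582, 525 and 588 CPM to 69.4, 60.4 and 52.7 CPM. Il6st and Met averaged 7.67 and 1.70 CPM in resting eosinophils and 63.6 and 14.5 CPM in control BMDEs. Il1r1 was lost without any 1 GMP library, and Vdr without any 1 library other than eosinophil library 3.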

How the data were processed

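RNA-seq of 3 bone marrow eosinophil and 3 GMP libraries was compared. Per the labels' protocols, RNA came from Trizol, polyadenylated RNA was enriched with oligo(dT), and a NEBNext Ultra kit was used; whether counting used strand is not given in the sources used here. Tools and build, per the submitters' processing notes, were fastp 0.18.0, Bowtie2 2.2.8, HISAT2, StringTie 1.3.1, RSEM and mm10; which tool made which column is not stated. The authors deposited expected counts for marrow eosinophils, GMPs and BMDEs, which were rounded to whole numbers here, and counts for resting eosinophils. The TPM values, which the authors scaled to transcript length, were used only for ranks. Totals were 25857382 to 28992668 counts per library; values that rest on few counts are limited by counting error.

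Genes kept by edgeR's filterByExpr were scaled by TMM and tested over the 6 libraries with edgeR 4.0.16's quasi-likelihood test (R 4.3.3, limma 3.58.1), calling an adjusted p under 0.05. Alternatives were relative log expression and upper-quartile factors, DESeq2 1.42.0, no filter, the replicate number as a block, and each library left out in turn. Loess offsets (span 0.3) on transcript length and GC, known for 98.0% of tested genes, were added after seeing the data. Gene IDs were matched to RefSeq for 15899 of 15945 genes (BMDEs 16596 of 16645, resting eosinophils 22219 of 22274), and symbols turned into dates were restored from the ID (21, 23 and 1 genes). Per-sample columns of other groups, 30 in all, were not used. The 41 lists hold 779 genes, 31 of them in at least 2 lists. The lists and members were chosen with earlier results of these data known. Listed genes missing from the table were not analysed here. Some genes that the naming rule picks are not reported here.

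Genes named in the text were the first 4 of each list, the called members with the largest changes (up to 4 per direction) and highest levels, the 15 largest changes each way (with no overlap, called also without eosinophil library 3), and 20 genes outside the lists at 10 CPM or more, or under 1 CPM, in every resting eosinophil and control BMDE library.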

Additional observations from a re-analysis of the deposited data

How the results depend on the processing

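The count of 2413 called genes (1585 higher, 828 lower) stayed within 1.5 times under relative log expression factors (2431), upper-quartile factors (2383), no filter on low counts (2175), the length and GC offsets (2403) and without eosinophil library 1 (3013). DESeq2 called 3867 genes, 1549 of them lower, and the offsets without eosinophil library 3 gave 5235, with 3239 lower. Leaving out each library in turn gave 747 to 4623 calls, 622 to 2545 higher and 125 to 2078 lower. The counts without eosinophil library 2 (1452, of which 1022 higher and 430 lower) and without GMP libraries 1 (747, 622 and 125), 2 (880, 704 and 176) and 3 (974, 754 and 220) were below that range of 1.5 times, and without eosinophil library 3 (4623, 2545 and 2078) above it. Called list members numbered 343, and 183 to 467 when each library was left out. Fewer libraries leave the test fewer residual degrees of freedom. No call shared with the 6-library comparison changed sign under any of these settings.

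Whether same-numbered libraries form pairs is not given. Deviations of same-numbered libraries from their group means correlated at 0.012, 0.005 and 0.119. Eosinophil library 1 correlated best with GMP library 2 (0.144), and eosinophil libraries 2 and 3 with the GMP library of the same number. With 3 libraries in a group, 1 of them standing apart, these correlations cannot decide whether the samples were paired. With the replicate block 1419 genes were called, 1024 higher and 395 lower.

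Of 221 genes named, Pf4 was the 1 that changed direction with a call. The log2 fold change of Pf4 was not called with all libraries (0.27) and ranged from -1.740 without eosinophil library 3, where it was called, to 0.699 without eosinophil library 2, and it was called at -2.358 with the offsets and without library 3; the cause was not tested. Relative log expression factors changed no named call, upper-quartile factors ended 4, no filter 7, the offsets 13 and the replicate block 22, while DESeq2 added 9 and the offsets 6. The number of higher genes at 10 CPM in every reference library was 994, and 1107 at 5 CPM and 852 at 20 CPM. Groups of 3 limit precision, and 5 of the 6 libraries each moved the count of calls by over 1.5 times.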
